A study of Mus musculus with 12 samples.

Results

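The 9 genes described here encode glutathione transferases of 3 kinds in the mouse: Gstm1, Gstm2, Gstm5 and Gstm6 of the mu class, Gstp1 and Gstp2 of the pi class, and the microsomal enzymes Mgst1, Mgst2 and Mgst3. They were taken by symbol from a deposited table of 35013 genes, where all 9 were listed. Of the 9, 8 passed the filter on low counts that left 13502 genes to test, and Gstp2 did not. Poly-A RNA had been sequenced from KP1 cells, a mouse line whose cell type the labels give as LUAD, in 4 groups of 3 libraries. EV cells carried the empty vector and NRF2 cells overexpressed NRF2. Each line had been exposed for 16 h to DMSO or to 5 nM romidepsin. All 4 groups were thus the same line with a vector and a solvent or drug. How many transductions or clones stood behind each vector is not said in the labels. The series describes the 3 replicates of each group as biological, and the p-values measure the spread between these libraries.

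Glutathione transferases join the tripeptide glutathione to electrophilic compounds, which makes them more soluble and ready for export. Mu and pi enzymes are cytosolic dimers, whereas the microsomal enzymes are unrelated membrane proteins of the MAPEG family. NRF2 is a transcription factor that KEAP1 marks for degradation and that binds antioxidant response elements (AREs) near genes of detoxification and glutathione metabolism. Romidepsin inhibits class I histone deacetylases.

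Libraries held 16842824 to 28003010 estimated counts, and levels are in CPM, each library's counts brought to the same total with TMM factors, which correct for RNA composition. A floor of 3 counts in a library was worth 0.105 to 0.182 CPM and covers counting error only. Under DMSO, Nfe2l2, the gene of NRF2, stood at 102 ± 1.37 CPM in EV cells and at 305 ± 40.7 CPM in the cells labelled NRF2 (SD, n = 3; log2 1.58 ± 0.07 SE, edgeR quasi-likelihood adjusted p = 7.2e-11). Replicate 3 of NRF2 cells with DMSO stood apart from its group, with Nfe2l2 at 352 CPM against 281 and 282. That library was also the lowest of its group for Gstm1, Gstm5, Gstm6, Gstp1, Gstp2, Mgst2 and Mgst3, and the highest for Gstm2 and Mgst1. Calls of these genes that change without it are given with and without it. The 6 epithelial markers summed to 3745 to 9906 CPM. Of these, Epcam was below the floor with DMSO, on 2 counts in all in EV cells and 4 in NRF2 cells. The 5 alveolar markers summed to 0.114 to 0.736 CPM, with Sftpa1 at 0 in every library, and the 3 club cell markers to 0 to 0.105 CPM, so the defining markers of those lung cells were near 0. The 7 mesenchymal markers summed to 2887 to 6154 CPM, nearly all of it Vim.

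The genes sit at 5 places in the genome (GRCm38, GENCODE M21). The mu genes form a cluster on chromosome 3 in the order Gstm5, Gstm7, Gstm6, Gstm3, Gstm2, Gstm1 and Gstm4. Of these, Gstm5 (ENSMUSG00000004032.10, chr3:107895821-107898686) is on the plus strand, and Gstm6 (ENSMUSG00000068762.11, chr3:107938847-107943749), Gstm2 (ENSMUSG00000040562.12, chr3:107981702-107986453) and Gstm1 (ENSMUSG00000058135.12, chr3:108012255-108017973) are on the minus strand. Gstp1 (ENSMUSG00000060803.6, chr19:4035407-4037985) and Gstp2 (ENSMUSG00000038155.11, chr19:4040285-4046023) are neighbours on the minus strand of chromosome 19. Mgst1 (ENSMUSG00000008540.11, chr6:138140316-138156755, plus strand), Mgst2 (ENSMUSG00000074604.9, chr3:51660360-51682677, plus strand) and Mgst3 (ENSMUSG00000026688.5, chr1:167371966-167393841, minus strand) are far from one another.

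Promoter sequences were searched for a core of the ARE and for the AP-1 element, since NRF2 binds the former and the members were compared for their response to NRF2. The RefSeq promoters (GRCm38.p6) run from 250 bases before to 50 bases after each gene's start, and all 9 genes matched the table. The ARE core was searched as TGACNNNGC on both strands and occurred in 12.4% of 32851 promoters. The AP-1 element was searched as TGANTCA, which reads alike on both strands, and occurred in 7.81%. A run of letters can match both motifs. Capitals mark the match in the sequences below, which are 29 bases each, 5′ to 3′ on the gene's strand. Mgst1 and the first Gstm5 sequence hold the ARE core as searched, on the opposite strand in Mgst1, and the others hold the AP-1 element. The ARE search fixed the C of TGAC. It therefore passed over TGAGTCAgc in Gstp1 and Gstp2, which has G in that place and otherwise fits the pattern. Whether NRF2 binds there was not tested.
Mgst1, chr6:138140461-138140489: gcggggcttgGCACGGTCAggaggcgggg
Gstm5, chr3:107895802-107895830: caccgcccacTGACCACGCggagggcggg
Gstm5, chr3:107895667-107895695: actgtgcaacaTGACTCAcgcttcccggg
Mgst2, chr3:51661116-51661144: cccaatcctgtTGACTCAactctgttgcc
Gstp1, chr19:4037969-4037997: ctccaacgtgtTGAGTCAgcatccggggc
Gstp2, chr19:4042293-4042321: ctccaacgtgtTGAGTCAgcatccggggc

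Distances here are from the RefSeq start, which differs from the GENCODE bounds given for each gene. By those bounds the Mgst1, Mgst2 and Gstp2 windows lie inside the gene, the Gstp1 and first Gstm5 windows run across its edge, and only the second Gstm5 window lies wholly outside it. In the Mgst1 promoter the match began 56 bases before the start (chr6:138140527), in 1 of its 2 listed promoters. The Gstm5 matches began 42 and 176 bases before the start and the Mgst2 match 52 bases before it. The windows of Gstp1 and Gstp2 were identical at 29 of 29 bases, within 250 upstream bases that were 83.2% identical. In Gstp1 the match lay 74 bases before the start and in Gstp2 89 bases before it. The promoters of Gstm1, Gstm2, Gstm6 and Mgst3 held neither motif, which says only that these letters are not in this window. The genes with a match included both the member with the largest fitted NRF2 fold change with DMSO among the 8 tested, Mgst1, and Gstm5, whose difference did not pass the test.

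Gstm1, the major mu-class member in these cells, was higher with NRF2, higher with romidepsin, and higher still with both. In EV cells with DMSO its 3 libraries held 36.8, 37.0 and 37.6 CPM. With NRF2 they held 73.2, 75.1 and 71.5 CPM, and EV cells with romidepsin held 72.2, 69.2 and 77.2 CPM. NRF2 cells with romidepsin held 150.2, 149.5 and 153 CPM. The libraries of EV cells with DMSO were the lowest and those of NRF2 cells with romidepsin the highest, while NRF2 alone and romidepsin alone overlapped each other. NRF2 raised Gstm1 by 1.97-fold with DMSO (log2 0.98 ± 0.05 SE, edgeR adjusted p = 6.8e-11) and by 2.07-fold with romidepsin (log2 1.05 ± 0.05, edgeR adjusted p = 2.8e-11). Romidepsin raised it by 1.96-fold in EV cells (log2 0.97 ± 0.05, edgeR adjusted p = 5.7e-12) and by 2.06-fold in NRF2 cells (log2 1.04 ± 0.05, edgeR adjusted p = 6.5e-13). The mean with both was 4.07 times that of EV cells with DMSO. The interaction, which is the NRF2 difference with romidepsin minus that with DMSO, was 0.07 ± 0.07 on the log2 scale (edgeR adjusted p = 0.55).

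**Figure D1:**
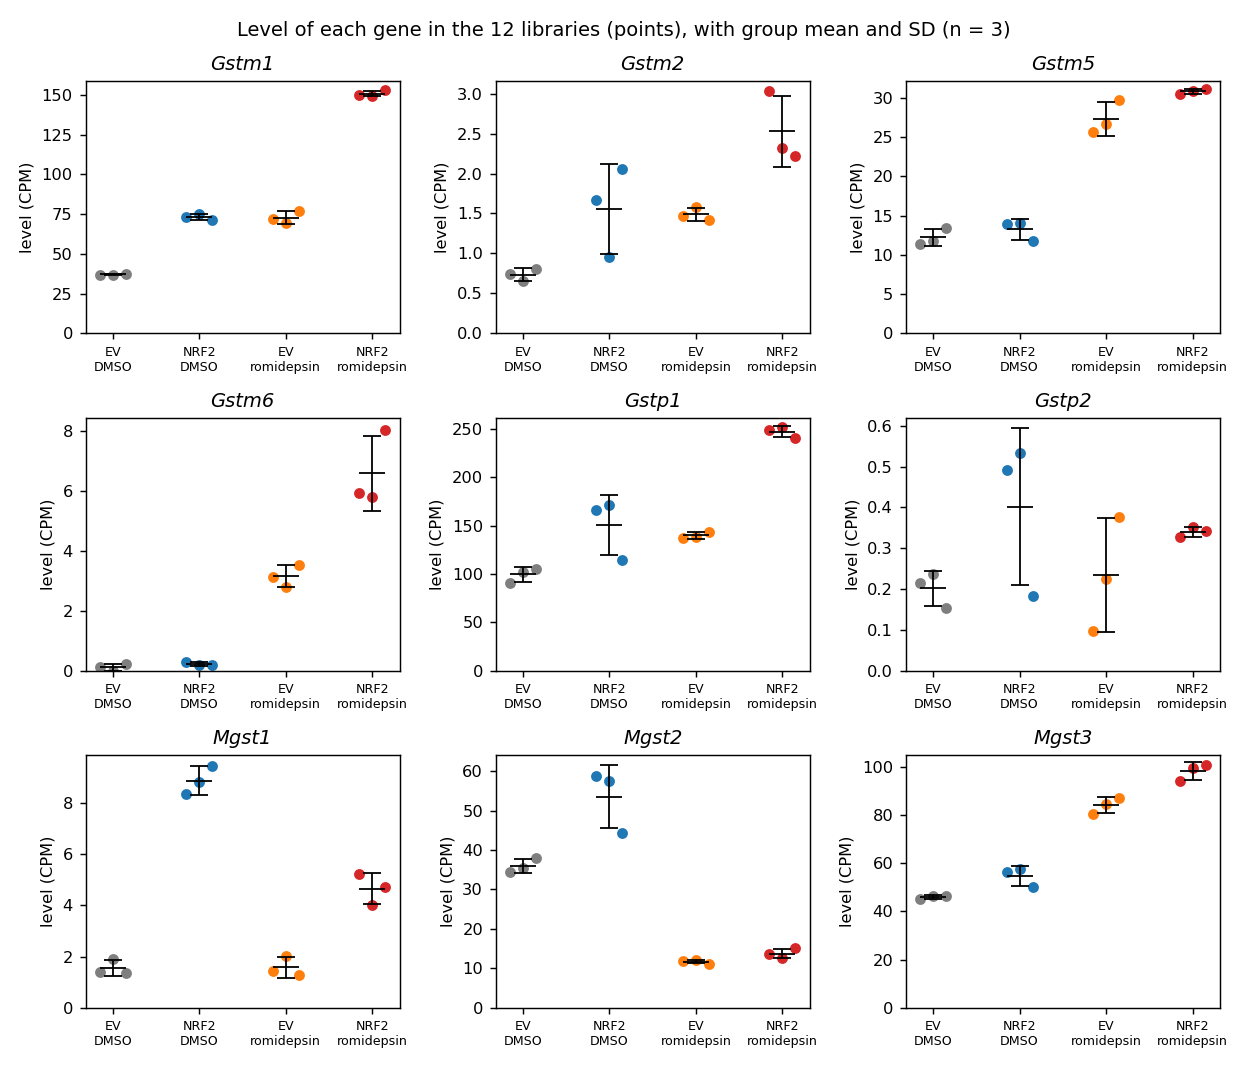
Levels of the 9 genes in CPM (vertical axes, each from 0) in the 4 groups, with each library as a point, the group mean as a short line and its SD as a bar (n = 3). Gstm1 and Gstp1 are highest in NRF2 cells with romidepsin, Mgst1 is highest in NRF2 cells with DMSO at 8.87 CPM, and Mgst2 is low in both romidepsin groups.

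Gstm2, a minor mu-class member, followed the same order of group means at a far lower level. It was at 0.747, 0.651 and 0.809 CPM in EV cells with DMSO and at 1.67, 0.951 and 2.06 CPM in NRF2 cells with DMSO. EV cells with romidepsin held 1.47, 1.58 and 1.41 CPM, and NRF2 cells with romidepsin held 3.04, 2.32 and 2.22 CPM. NRF2 cells with DMSO overlapped EV cells with romidepsin, and the other pairs of groups did not overlap. These levels rest on 46 to 170 counts a group. The rises were 2.02-fold for NRF2 with DMSO (log2 1.01 ± 0.29, edgeR adjusted p = 0.011) and 1.99-fold for romidepsin in EV cells (log2 0.99 ± 0.29, edgeR adjusted p = 0.0046). Without replicate 3 of NRF2 cells with DMSO, the NRF2 value with DMSO was log2 0.78 ± 0.31 (edgeR adjusted p = 0.044). Romidepsin in NRF2 cells gave log2 0.74 ± 0.24 (edgeR adjusted p = 0.0083), a call lost without replicate 2 of NRF2 cells with DMSO (log2 0.44, edgeR adjusted p = 0.081) or replicate 1 of NRF2 cells with romidepsin (log2 0.57, edgeR adjusted p = 0.065). NRF2 with romidepsin gave log2 0.76 ± 0.24 (edgeR adjusted p = 0.014), also lost without the latter library (log2 0.59, edgeR adjusted p = 0.092).

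Gstm5, the mu-class gene that runs on the other strand from the rest of the members in the cluster, rose with romidepsin, while its NRF2 differences did not pass the test. Its levels were 11.4, 11.8 and 13.5 CPM in EV cells with DMSO and 13.9, 14.1 and 11.7 CPM in NRF2 cells with DMSO, and these 2 groups overlapped (log2 0.12 ± 0.09, edgeR adjusted p = 0.36). With romidepsin EV cells held 25.6, 26.7 and 29.8 CPM and NRF2 cells 30.5, 30.9 and 31.1 CPM. All 6 romidepsin libraries thus lay above all 6 DMSO libraries. Romidepsin raised Gstm5 by 2.22-fold in EV cells (log2 1.15 ± 0.09, edgeR adjusted p = 1.2e-09) and by 2.31-fold in NRF2 cells (log2 1.21 ± 0.08, edgeR adjusted p = 3.5e-10). The NRF2 difference with romidepsin was log2 0.17 ± 0.08 (edgeR adjusted p = 0.086). It passed the threshold at log2 0.16 without replicate 3 of NRF2 cells with DMSO (edgeR adjusted p = 0.037), at 0.24 without replicate 3 of EV cells with romidepsin (edgeR adjusted p = 0.041) and at 0.17 with those 2 groups fitted alone (edgeR adjusted p = 0.013).

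Gstm6 was near the counting floor with DMSO and detected clearly with romidepsin. It was at 0.107, 0 and 0.231 CPM in EV cells and at 0.295, 0.190 and 0.182 CPM in NRF2 cells with DMSO, on 8 and 14 counts in all. With romidepsin EV cells held 3.14, 2.79 and 3.54 CPM and NRF2 cells 5.93, 5.80 and 8.04 CPM, on 201 and 433 counts. The romidepsin groups did not overlap each other or the DMSO groups. Gstm6 passed the filter only through its romidepsin libraries, so its romidepsin rise was partly fixed by the filter. The fitted values were 23.4-fold in EV cells (log2 4.55 ± 0.37, edgeR adjusted p = 4e-09) and 28.7-fold in NRF2 cells (log2 4.84 ± 0.30, edgeR adjusted p = 6.8e-11). Without replicate 3 of EV cells with DMSO, which held 6 of that group's 8 counts, the value in EV cells was log2 5.67. NRF2 raised Gstm6 by 2.07-fold with romidepsin (log2 1.05 ± 0.19, edgeR adjusted p = 2.5e-04), while with DMSO the difference was log2 0.75 ± 0.64 (edgeR adjusted p = 0.39) and log2 1.88 without that same library (edgeR adjusted p = 0.11).

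The other genes of the mu cluster were Gstm3, Gstm4 and Gstm7, and all 3 were called higher with romidepsin in both lines. Over all tested genes, 39.1% were called higher in EV cells and 40.5% in NRF2 cells. With the pi-class gene Gstp3 added, 4 were called in EV cells, and 3 at the lowest when single libraries were left out. Gstm7, the neighbour of Gstm5 and Gstm6, went from 0.284 ± 0.171 to 11.4 ± 0.632 CPM in EV cells (log2 5.33 ± 0.24, edgeR adjusted p = 1e-12). In NRF2 cells it went from 0.253 ± 0.160 to 5.52 ± 0.0400 CPM (log2 4.33 ± 0.26, edgeR adjusted p = 3.6e-11). With romidepsin, Gstm7 was lower in NRF2 than in EV cells (log2 -1.04 ± 0.14, edgeR adjusted p = 1.5e-05), the direction opposite to Gstm1, Gstm2 and Gstm6. Gstm4 was higher with NRF2 under romidepsin (log2 1.28 ± 0.29, edgeR adjusted p = 0.0014). Counts of Gstm3 summed to 0 in EV and 4 in NRF2 cells under DMSO, and to 40 and 97 under romidepsin. All 3, like Gstm6, passed the filter only through romidepsin libraries, so the filter partly fixed their rises too.

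**Figure D2:**
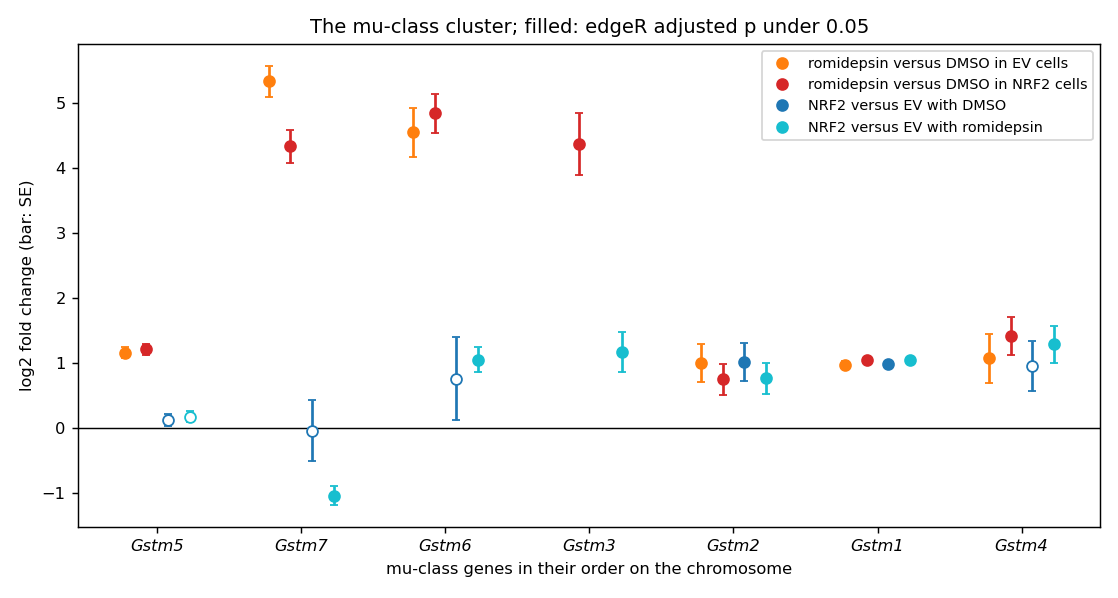
Fitted log2 fold changes (vertical axis, bars are SE, 3 libraries a group) of the 7 mu-class genes, placed in their order on the chromosome, in the 4 pairwise comparisons; filled points passed an edgeR adjusted p of 0.05, and Gstm3 against EV cells with DMSO is left out because that group held no count. The romidepsin values of Gstm7, Gstm6 and Gstm3 lie above 4, those of the other 4 genes between 0.74 and 1.41.

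Shared sequence limits how surely reads can be assigned to the mu genes. Of the 31-base words of Gstm1 transcripts, 28.8% also occurred in other genes, with 22.6% in Gstm2-ps1 and 15.4% in another of the 7 mu genes. The shares were 12.2% for Gstm2, 11.1% for Gstm5 and 9.62% for Gstm6, with 4.17%, 0 and 5.33% inside the class. All shared words of Gstm5 occurred in 4933431E20Rik. Summing the counts of the 7 mu genes removes the division of reads among them but not the division with genes outside the class. The sum gave log2 0.81 ± 0.05 for NRF2 with DMSO (edgeR adjusted p = 1.3e-09) and 0.76 ± 0.05 with romidepsin (edgeR adjusted p = 2.7e-09). For romidepsin the summed mu counts gave log2 1.21 ± 0.05 in EV cells (edgeR adjusted p = 4.9e-13) and 1.16 ± 0.05 in NRF2 cells (edgeR adjusted p = 3.4e-13).

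Per kilobase of merged exon, the scale on which genes can be compared, Gstm1 made up 70.7% ± 1.54 of the mu-class level in EV cells with DMSO (SD, n = 3). Its share was 80.6% ± 0.890 with NRF2, 60.8% ± 0.533 with romidepsin and 74.8% ± 0.270 with both. Gstm5 made up 26.8% ± 1.45, 16.8% ± 1.15, 26.3% ± 1.03 and 17.6% ± 0.160 in the same order. Gstm7 reached 8.76% ± 0.435 in EV cells with romidepsin and 2.52% ± 0.0391 in NRF2 cells with romidepsin. The Gstm1 share did not overlap between any 2 groups, and the Gstm5 share was lower in each NRF2 library than in each EV library and overlapped between the treatments in EV cells.

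**Figure D3:**
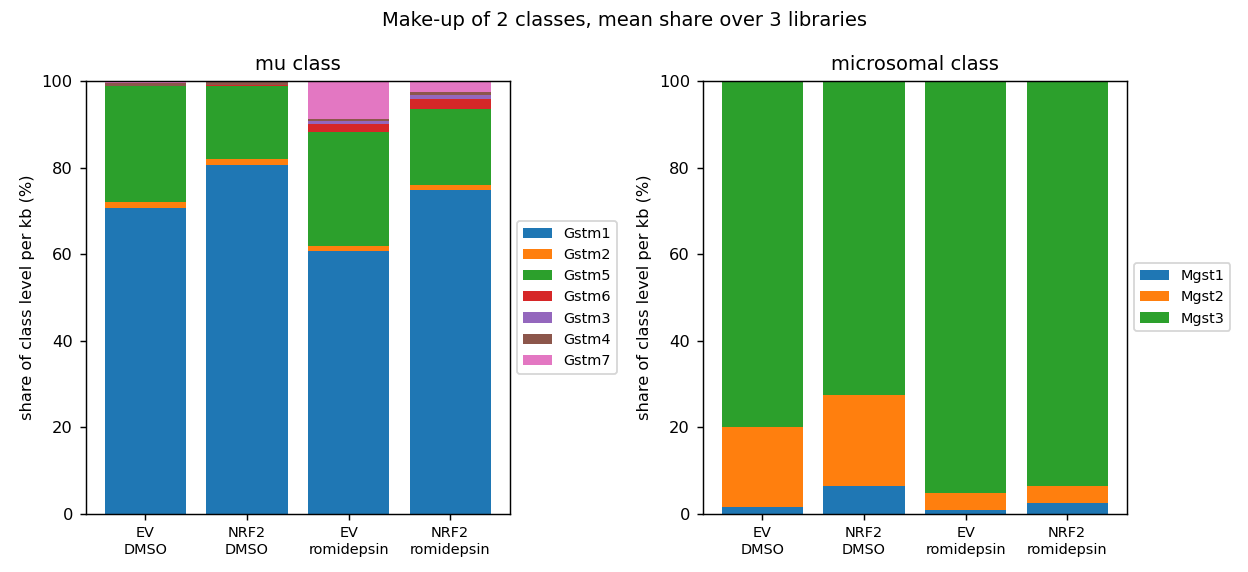
Make-up of the mu class (left) and the microsomal class (right) as mean shares of the class level per kilobase (vertical axis, %) in the 4 groups, over 3 libraries each. Gstm1 takes 60.8 to 80.6% of the mu class and Mgst3 72.6 to 95.1% of the microsomal class.

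Gstp1, the pi-class enzyme that is abundant in many tumours, was the highest of the 9 genes per kilobase in every group and rose in all 4 pairwise comparisons. EV cells with DMSO held 90.9, 101.8 and 106 CPM, and NRF2 cells with DMSO held 166, 171 and 114 CPM. EV cells with romidepsin held 137, 139 and 143 CPM, and NRF2 cells with romidepsin 249, 252 and 241 CPM. NRF2 cells with DMSO overlapped EV cells with romidepsin through the low replicate 3, and no other 2 groups overlapped. NRF2 raised Gstp1 by 1.52-fold with DMSO (log2 0.60 ± 0.13, edgeR adjusted p = 0.0034), or by log2 0.77 ± 0.05 without replicate 3 of NRF2 cells with DMSO. With romidepsin the NRF2 rise was 1.77-fold (log2 0.82 ± 0.12, edgeR adjusted p = 3.1e-04). Romidepsin raised Gstp1 by 1.40-fold in EV cells (log2 0.49 ± 0.13, edgeR adjusted p = 0.0042) and by 1.64-fold in NRF2 cells (log2 0.71 ± 0.12, edgeR adjusted p = 2.7e-04), or by log2 0.53 ± 0.05 in the latter without the same library. The interaction was log2 0.22 ± 0.18 (edgeR adjusted p = 0.45), and 0.04 ± 0.06 without it.

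Gstp2, the neighbouring copy of Gstp1, was barely detected in these cells. Its libraries held 0.098 to 0.532 CPM, on 12, 27, 15 and 23 counts in EV cells with DMSO, NRF2 cells with DMSO, EV cells with romidepsin and NRF2 cells with romidepsin. NRF2 cells with DMSO overlapped each of the other groups, and the gene was not tested because its counts were too low. Fitted without a filter, its 4 pairwise log2 values ran from -0.31 to 1.07, with edgeR adjusted p-values of 0.23 to 0.83. Of the Gstp2 words, 54.8% also occurred in Gstp1, and of the Gstp1 words 38.5% occurred in Gstp2. The division of reads between them is therefore uncertain. Gstp1 took 98.6 to 99.6% of the pi-class level per kilobase as a group mean, and the sum of Gstp1, Gstp2 and Gstp3 gave log2 0.60 ± 0.13 for NRF2 with DMSO (edgeR adjusted p = 0.0035), as Gstp1 did. Gstp3, outside the 9, held 3 and 5 counts with DMSO and 62 and 110 with romidepsin in EV and NRF2 cells.

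Among the microsomal enzymes, Mgst1, which conjugates glutathione and reduces lipid peroxides in membranes, had the largest fitted NRF2 fold change with DMSO of the 8 genes tested. It was at 1.39, 1.89 and 1.35 CPM in EV cells and at 8.35, 8.82 and 9.45 CPM in NRF2 cells with DMSO. With romidepsin EV cells held 1.42, 2.03 and 1.27 CPM and NRF2 cells 5.23, 4.005 and 4.73 CPM. The EV groups overlapped each other, every NRF2 library lay above them, and the 2 NRF2 groups did not overlap. NRF2 raised Mgst1 by 5.81-fold with DMSO (log2 2.54 ± 0.17, edgeR adjusted p = 3.3e-09) and by 2.92-fold with romidepsin (log2 1.54 ± 0.18, edgeR adjusted p = 2.5e-06). The interaction was log2 -0.99 ± 0.26 (edgeR adjusted p = 0.014). Without replicate 2 of EV cells with romidepsin it was -0.77 (edgeR adjusted p = 0.078). Romidepsin lowered Mgst1 by 1.91-fold in NRF2 cells (log2 -0.94 ± 0.14, edgeR adjusted p = 1.0e-05), while in EV cells the difference was log2 0.06 ± 0.21 (edgeR adjusted p = 0.82), which took either sign when single libraries were left out.

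Mgst2, which can also make leukotriene C4, was lower with romidepsin in both lines. It was at 34.4, 35.4 and 38.0 CPM in EV cells and at 58.8, 57.5 and 44.3 CPM in NRF2 cells with DMSO. With romidepsin EV cells held 11.8, 12.1 and 11.2 CPM and NRF2 cells 13.5, 12.6 and 15.1 CPM. All 6 romidepsin libraries lay below all 6 DMSO libraries, and NRF2 and EV libraries did not overlap within a treatment. Romidepsin lowered Mgst2 by 3.08-fold in EV cells (log2 -1.62 ± 0.10, edgeR adjusted p = 2.9e-10) and by 3.93-fold in NRF2 cells (log2 -1.98 ± 0.10, edgeR adjusted p = 9e-12). NRF2 raised it by 1.49-fold with DMSO (log2 0.58 ± 0.09, edgeR adjusted p = 8.9e-05), or by log2 0.69 ± 0.06 without replicate 3 of NRF2 cells with DMSO. The NRF2 difference with romidepsin was log2 0.22 ± 0.11 (edgeR adjusted p = 0.11). Without replicate 3 of NRF2 cells with DMSO that difference passed the threshold at log2 0.21 (edgeR adjusted p = 0.025), as it did with those groups fitted alone at 0.22 (edgeR adjusted p = 0.029). The interaction of log2 -0.35 ± 0.14 (edgeR adjusted p = 0.11) also passed without that library, at -0.49 ± 0.10 (edgeR adjusted p = 3.9e-04).

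Mgst3, a microsomal enzyme with glutathione peroxidase activity, had small NRF2 rises and larger romidepsin rises. It was at 45.0, 46.2 and 46.4 CPM in EV cells and at 56.5, 57.6 and 49.95 CPM in NRF2 cells with DMSO. With romidepsin EV cells held 80.4, 84.4 and 87.0 CPM and NRF2 cells 93.9, 99.7 and 101 CPM. The 4 groups did not overlap and stood in that order. NRF2 raised Mgst3 by 1.19-fold with DMSO (log2 0.26 ± 0.06, edgeR adjusted p = 0.0019) and by 1.17-fold with romidepsin (log2 0.22 ± 0.05, edgeR adjusted p = 0.0025). Romidepsin raised it by 1.83-fold in EV cells (log2 0.87 ± 0.06, edgeR adjusted p = 1.6e-10) and by 1.79-fold in NRF2 cells (log2 0.84 ± 0.06, edgeR adjusted p = 1.4e-10).

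The make-up of the microsomal class followed these opposite directions. Mgst3 took 80.0% ± 0.501 of the class level per kilobase in EV cells with DMSO, 72.6% ± 0.609 with NRF2, 95.1% ± 0.445 with romidepsin and 93.7% ± 0.633 with both. Mgst2 took 18.6% ± 0.627 and 21.0% ± 1.54 in the DMSO groups of EV and NRF2 cells and 3.93% ± 0.260 and 3.89% ± 0.314 in their romidepsin groups, which did not overlap the former. Mgst1 took 6.47% ± 0.942 in NRF2 cells with DMSO and 0.973% to 2.43% as a mean elsewhere. Few 31-base words of the microsomal genes were shared with another gene: none of Mgst1, 3.04% of Mgst2 and 1.31% of Mgst3.

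Per kilobase, Gstp1 was first in EV cells with DMSO at 64.2 ± 4.92 CPM per kb, followed by Mgst3 at 41.8 ± 0.675 and Gstm1 at 25.2 ± 0.285 CPM per kb. Mgst2 at 9.71 ± 0.510 and Gstm5 at 9.57 ± 0.840 CPM per kb did not differ beyond their spread. Mgst1, Gstm2, Gstp2 and Gstm6 followed, all below 1 CPM per kb. In NRF2 cells with DMSO, Mgst3 at 49.8 ± 3.76 and Gstm1 at 49.7 ± 1.21 CPM per kb did not differ beyond their spread. In EV cells with romidepsin Mgst3 stood at 76.5 ± 3.05 and Gstm1 at 49.5 ± 2.72 CPM per kb. In NRF2 cells with romidepsin the order of that pair turned, with Gstm1 at 102 ± 1.24 and Mgst3 at 89.5 ± 3.42 CPM per kb, below Gstp1 at 159.7 ± 3.75 CPM per kb.

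Across the comparisons, NRF2 with DMSO raised 6 of the 8 tested genes and lowered 0, with 2 not passing the test (Gstm5 and Gstm6), where 19.3% of all tested genes were called higher and 16.9% lower. The median log2 value of the 8 was 0.68, and that of all tested genes was -0.01. With romidepsin, NRF2 cells were again higher for 6 of 8 and lower for 0, against 23% and 22.4% of all tested genes, and here Gstm5 and Mgst2 did not pass. Gstm1, Gstm2, Gstp1, Mgst1 and Mgst3 were called higher in both. Neither edgeR at an unadjusted p under 0.05 nor DESeq2 nor limma-voom called any of the 8 lower with NRF2 (0 in each treatment). In the interaction 1 of the 8 was called lower, Mgst1, and 0 higher, where 5.53% of all tested genes were called higher and 10.2% lower. The edgeR count at an unadjusted p under 0.05 was 2 lower and 0 higher, and DESeq2 called 1 lower and 0 higher. That genome-wide count of 1380 lower was 2128 without replicate 3 of NRF2 cells with DMSO, and among the 8 genes Mgst2 then joined Mgst1.

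Romidepsin in EV cells was followed by 6 higher and 1 lower of the 8 genes, where 39.1% of all tested genes were called higher and 37.4% lower. In NRF2 cells 6 were higher and 2 lower, against 40.5% and 39.3%. Gstm6 is among the 6 in both lines, and its entry into the 8 depended on its romidepsin libraries. Gstm1, Gstm2, Gstm5, Gstp1 and Mgst3 were the others, and Mgst2 was the gene lower in both lines. Scaled by library size alone or by upper quartiles in place of TMM, the median log2 value of all tested genes under romidepsin was 0.13 or 0.12 in EV cells and 0.15 or 0.12 in NRF2 cells, against 0.01 for both with TMM. The 8 genes kept their direction under each of these scalings in all 4 pairwise comparisons. Each comparison of NRF2 with EV cells shares 1 group of libraries with each comparison of romidepsin with DMSO, so their values are given side by side only.

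**Figure D4:**
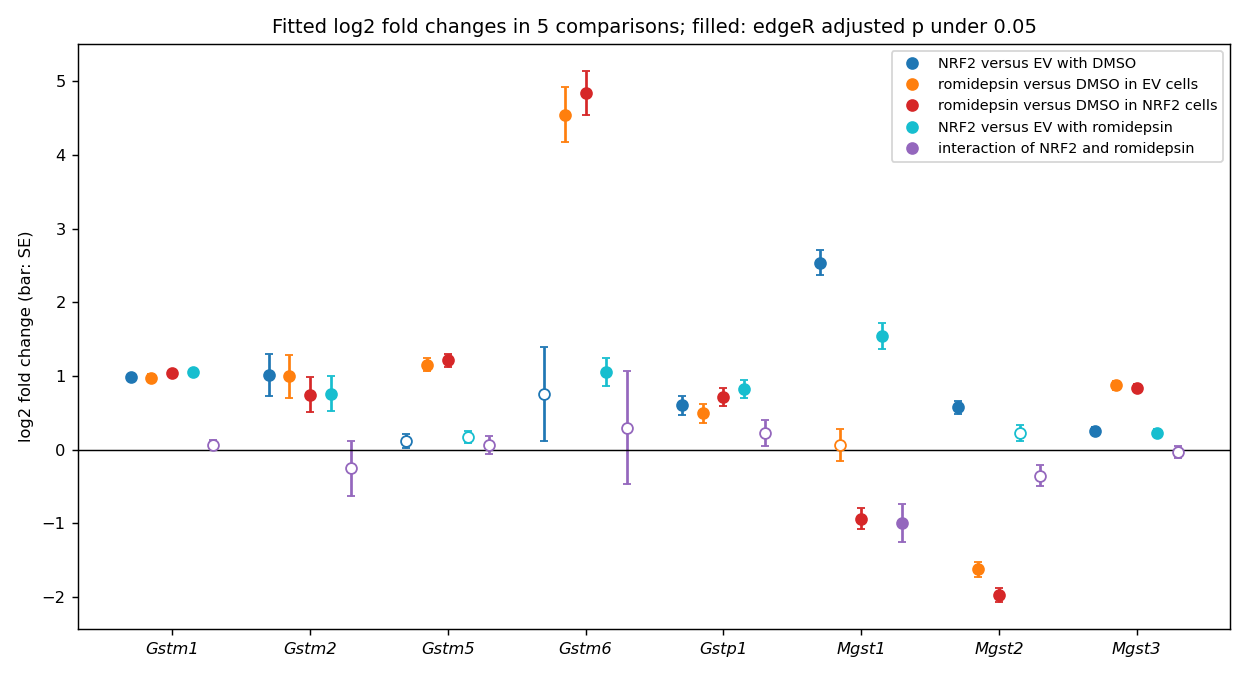
Fitted log2 fold changes of the 8 tested genes (vertical axis, bars are SE) in the 4 pairwise comparisons and the interaction, 3 libraries a group; filled points passed an edgeR adjusted p of 0.05. Mgst1 has the highest NRF2 value with DMSO at 2.54 and the 1 filled interaction at -0.99, Gstm6 has the highest romidepsin values at 4.55 and 4.84, and Mgst2 has the lowest at -1.62 and -1.98.

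Over the 12 libraries, the pattern most like that of each gene was sought by the root mean square difference of centred log2 CPM. The search covered 9865 or 9866 other tested genes that averaged 5 CPM or more (the larger number for Gstm2, Gstm6 and Mgst1, themselves below that level). Predicted genes (Gm and Rik symbols) and pseudogenes were left out of it. Genes near Gstm1 were Pcdh1 (0.13), Dock4 and Bin1, and genes near Gstm5 were Ift20 (0.06), Ethe1 and Mad2l1bp. For Gstp1 they were Slc66a2 (0.07), Krt7 (0.11) and Abhd4, for Mgst2 Lysmd2 (0.13), Emp3 and Rbp4, and for Mgst3 Man2b1 (0.06), Stx8 and Mfge8. The scarcer genes had looser neighbours: Erc2 (0.23), Arhgef3 and Camk2n1 for Gstm2, and Ppm1j (0.33), Spn and Insl6 for Gstm6. For Mgst1 they were Vnn1 (0.29), St6galnac2 (0.30) and Aldh3a1 (0.35), an aldehyde dehydrogenase on the list of NRF2 targets. Among the 8 genes, Gstm5 and Mgst3 were the closest pair (0.18) and Gstm6 and Mgst2 the farthest (3.06).

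The epithelial marker sum moved with several of the 9 genes. It ranged from 3745 to 3782 CPM in EV cells with DMSO, 5471 to 6182 CPM in NRF2 cells with DMSO, 6352 to 6497 CPM in EV cells with romidepsin and 9408 to 9906 CPM in NRF2 cells with romidepsin. Of the 6 markers, 5 were called higher in each of the 4 pairwise comparisons, where 19.3% to 40.5% of all tested genes were. The sixth was Epcam for NRF2 with DMSO (log2 0.85 ± 0.86, edgeR adjusted p = 0.57), which passed the filter only through romidepsin libraries. Its romidepsin rises, counted among the 5, were thus partly fixed by the filter. In the other comparisons the sixth was Cdh1, the adhesion protein E-cadherin, which was called lower. Cdh1 was at log2 -0.52 ± 0.04 with romidepsin in EV cells (edgeR adjusted p = 5.7e-09) and -0.88 ± 0.04 in NRF2 cells (edgeR adjusted p = 3.1e-12). With NRF2 under romidepsin it was at -0.12 ± 0.04 (edgeR adjusted p = 0.033), a call lost on leaving out replicate 1 or 2 of the EV group or replicate 2 or 3 of the NRF2 group under romidepsin. Krt7, one of them and a near neighbour of Gstp1 in pattern, was at 533 ± 3.69, 890.3 ± 78.5, 784 ± 8.91 and 1402 ± 73.8 CPM in the 4 groups in that order. The mesenchymal sum was 3354 to 3508 CPM in EV cells with DMSO, 2887 to 3211 CPM in NRF2 cells with DMSO, 6076 to 6154 CPM in EV cells with romidepsin and 5195 to 5553 CPM in NRF2 cells with romidepsin. Of the 7 mesenchymal markers, 4 were tested. Romidepsin was followed by 3 of them higher in EV and 4 in NRF2 cells, where 39.1% and 40.5% of all tested genes were higher. Vim, an intermediate filament gene, was at log2 0.83 ± 0.05 with romidepsin in EV cells (edgeR adjusted p = 6.1e-11) and at -0.19 ± 0.05 with NRF2 under romidepsin (edgeR adjusted p = 0.0044). Col3a1 was at 0 in both DMSO groups. The part of these marker shifts in the transferase results was not tested. Fewer cells of a type and less RNA per cell cannot be told apart in bulk libraries.

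Other transferase classes were read from lists chosen with earlier results of these data known. Of the 4 alpha-class genes, 4 were called higher with NRF2 in both treatments (all tested genes: 19.3% with DMSO and 23% with romidepsin). Shared sequence among the alpha genes was not measured, so the division of reads among Gsta1, Gsta2 and Gsta3 is uncertain. All 3 were near the counting floor in EV cells with DMSO. They passed the filter only through NRF2 libraries, so their NRF2 rises were partly fixed by the filter. Gsta4, which acts on lipid aldehydes, rose from 3.91 ± 0.880 to 50.2 ± 4.25 CPM with DMSO (log2 3.66 ± 0.10, edgeR adjusted p = 9.1e-14). Romidepsin raised Gsta4 to 88.5 ± 2.36 CPM in EV cells (log2 4.47 ± 0.10, edgeR adjusted p = 2.7e-16). In NRF2 cells romidepsin raised Gsta4 (log2 2.07 ± 0.07, edgeR adjusted p = 3e-14) and lowered Gsta1 (log2 -0.99 ± 0.16, edgeR adjusted p = 8.7e-05) and Gsta3 (log2 -1.10 ± 0.16, edgeR adjusted p = 4e-06), so 1 of the 4 was higher. Leaving out replicate 3 of the NRF2 group with DMSO, 2 were. Over all tested genes and with all libraries, 40.5% were higher and 39.3% lower, so these counts were near those shares. The interaction of Gsta4 was log2 -2.41 ± 0.12 (edgeR adjusted p = 2.3e-09), below 0 as for Mgst1. All 4 alpha genes were called lower in the interaction, where 10.2% of all tested genes were. Without single libraries, 2 to 4 of them were. Of 8 theta, zeta, kappa and omega genes, 6 were tested. NRF2 with DMSO raised 5 of them, where 19.3% of all tested genes were called higher. In the interaction 2 of the 6 were called lower, against 10.2% of all tested genes, and 1 to 3 without single libraries. Romidepsin raised 5 and lowered 1 in each line. Over all tested genes, 39.1% and 40.5% were higher and 37.4% and 39.3% lower in EV and NRF2 cells. Of the 5, Gstt1 (2 and 14 counts in EV and NRF2 cells with DMSO) and Gstt2 (6 and 24 counts) passed the filter only through romidepsin libraries. The gene that fell was Gstz1, which isomerizes maleylacetoacetate in tyrosine breakdown (log2 -1.09 ± 0.07 in EV and -1.31 ± 0.07 in NRF2 cells, edgeR adjusted p = 1.7e-10 and 9e-12). Ptges, the MAPEG enzyme that makes prostaglandin E, stood at 56.4 ± 1.23 CPM in EV cells under DMSO and rose to 161 ± 2.08 CPM under romidepsin (log2 1.52 ± 0.05, edgeR adjusted p = 2e-14), the direction of Mgst3 and not of Mgst2.

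Of 7 genes that supply glutathione, NRF2 with DMSO raised 5 and lowered 1, where 19.3% and 16.9% of all tested genes were called. Romidepsin in EV cells raised 2 and lowered 4, where 39.1% and 37.4% were. Gclc, the catalytic subunit of the rate-limiting enzyme of glutathione synthesis, was at 52.4 ± 1.92 CPM in EV cells with DMSO, 110.5 ± 7.28 with NRF2, 50.5 ± 0.916 with romidepsin and 274.7 ± 11.4 with both. Its interaction was log2 1.37 ± 0.08 (edgeR adjusted p = 3.6e-09), so that the NRF2 difference was larger with romidepsin, where for Mgst1 it was smaller. Slc7a11, the cystine transporter subunit, fell with romidepsin in EV cells from 138 ± 4.90 to 14.7 ± 1.66 CPM (log2 -3.23 ± 0.07, edgeR adjusted p = 2.4e-16) and in NRF2 cells from 159 ± 3.32 to 57.7 ± 4.14 CPM (log2 -1.46 ± 0.06, edgeR adjusted p = 3.9e-13). In the interaction 4 of the 7 were called higher, also without any 1 library, against 5.53% of all tested genes. The other 3 did not pass the edgeR test with all libraries, but the count called lower moved when single libraries were left out. Leaving out DMSO libraries, it was 3 for NRF2 replicate 3, 2 for EV replicate 3 and 1 for NRF2 replicate 1 or 2, and it was 1 for NRF2 replicate 1 under romidepsin.

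Of 6 export pumps for glutathione conjugates, NRF2 with DMSO raised 4 and lowered 1, where 19.3% and 16.9% of all tested genes were called. Romidepsin in EV cells raised 2 and lowered 3, near the shares of 39.1% and 37.4% over all tested genes. Abcc2, an efflux pump for conjugates, was at 0.118 ± 0.103, 3.54 ± 0.350, 0.236 ± 0.0539 and 1.43 ± 0.109 CPM in EV cells with DMSO, NRF2 cells with DMSO, EV cells with romidepsin and NRF2 cells with romidepsin. Abcc2 passed the filter only through NRF2 libraries, so its NRF2 rise, counted among the 4, was partly fixed by the filter. Like Mgst1 it was lower with romidepsin in NRF2 cells (log2 -1.32 ± 0.22, edgeR adjusted p = 3.4e-05). Of 14 genes of mercapturate formation and glutathione breakdown, 9 were tested. NRF2 with DMSO raised 4 of these and lowered 2, against the same 19.3% and 16.9%. Romidepsin in EV cells raised 5 and lowered 2, where 39.1% and 37.4% of all tested genes were called. Ggt7, a member of the gamma-glutamyltransferase family, went from 0.106 ± 0.0618 to 5.22 ± 0.582 CPM with romidepsin in EV cells, on 6 and 334 counts. Ggt7, Ggt1 and Ggt6 were among the 5 that rose and passed the filter only through romidepsin libraries, so those rises were partly fixed by the filter, and 39.1% of all tested genes were higher. Of 18 NRF2 targets outside the transferases, 18 were called higher with NRF2 in each treatment, against 19.3% and 23% of all tested genes. This list was chosen as NRF2 targets, with earlier results of these data known. Its member Nqo1 passed the filter only through NRF2 libraries, so that rise was partly fixed by the filter. With romidepsin in EV cells 11 were higher and 4 lower, against 39.1% and 37.4% of all tested genes.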

How the data were processed

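Poly-A RNA of 12 libraries was sequenced. The deposited table gives estimated counts for each gene symbol, rounded by the authors (100% of values are whole). Per the submitters' processing notes, the tools were bcl2fastq 2.19, kallisto 0.44.0 and DESeq2 (version not given in the sources used here), with the build GRCm38. How transcripts were summed to genes is not given in the sources used here. A second deposited table, of normalized values (12 columns), was not used.

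Genes kept by the default filter of edgeR 4.0.16 (13502 of 35013) were tested with its quasi-likelihood test (robust, TMM factors, two-sided, 1 mean for each of the 4 groups, 8 residual degrees of freedom). Benjamini-Hochberg adjusted p-values run over all genes tested, called under 0.05. The prior count for log2 values was 0.125, and the SE is the size of the log2 value over the square root of F. The procedure was tested on simulated data. Alternatives were other scalings and filters, DESeq2 1.42.0, limma-voom (limma 3.58.1), the groups compared alone, a replicate block, a threshold of 0.01, and leaving out each library. List counts without single libraries were added after the data were seen. Exon lengths and shared 31-base words came from GENCODE M21, and promoters from RefSeq.

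Named genes are the 9 members, Nfe2l2, up to 4 called genes a list and comparison with the largest change and a mean of at least 1 CPM, and the 3 nearest patterns of each member. Gstm3, Gstm4 and Gstp3 were named outside this rule, after their values were seen, to complete the clusters. The members, lists, motifs and tests were chosen with earlier results of these data known. Counting intervals are not given where libraries replicate a group.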

Additional observations from a re-analysis of the deposited data

Results flagged for a closer look

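Mgst1 was the gene among the 8 tested whose NRF2 effect differed between treatments by a test of the difference itself, at log2 -0.99 ± 0.26 (edgeR quasi-likelihood adjusted p = 0.014). Its mean level went from 1.54 to 8.87 CPM with NRF2 under DMSO and from 1.57 to 4.66 CPM under romidepsin (n = 3 each). All 3 NRF2 libraries were above all 3 EV libraries in each treatment. Without single libraries the value ranged from -1.15 to -0.77, and the call was lost without replicate 2 of EV cells with romidepsin, the highest of that group at 2.03 CPM.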

How the results depend on the processing

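Of 871 values of the 8 genes under 22 alternatives, 851 kept their direction and their side of the threshold, 7 fell short of it, 6 passed it and 7 changed sign. The sign changes were in differences that did not pass the test. Leaving out single libraries, Mgst1 under romidepsin in EV cells ranged from log2 -0.17 to 0.21, the interaction of Gstm5 from -0.031 to 0.12 and that of Gstm6 from -0.83 to 0.75, which was -0.14 with limma-voom. The count of genes called lower in the interaction ranged from 0 to 2 without single libraries and was 0 at an adjusted p under 0.01, in place of 1, since the edgeR adjusted p of Mgst1 was 0.014. At that threshold Gstm2 also lost its 2 NRF2 calls (edgeR adjusted p = 0.011 and 0.014). The cause of the other changes was not tested.

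Of 18 same-numbered pairs of libraries, 0 had deviations correlated over 0.1 (r from -0.12 to 0.06). Whether a number marks a shared batch is not said in the labels and cannot be decided from these correlations. With the replicate block the counts were again 6 higher in each pairwise comparison and 1 lower in the interaction, where Mgst1 was at -0.99 (edgeR adjusted p = 0.029). The 150 alternative values of the summed mu and pi counts kept direction and call. Gstm6 was filtered out of the DMSO groups fitted alone, so it has no value there. Depth limits Gstp2, with 3 to 14 counts in a DMSO library, and Gstm6, with 0 to 6.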
